A study of Danio rerio with 16 samples.

Results

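The ventricles described here came from adult zebrafish 7 days after cryoinjury of the heart, and they were compared between fish carrying the ankrd1a bns502 mutation and wild-type fish. The mutant group (4 libraries) carried the bns502 allele, made by CRISPR/Cas9 genome editing, and the wild-type group (4 libraries) was of the AB (Oregon) strain. These 8 libraries, chosen by their labels, are part of 16; the other 8 are from sham-operated mutants and sham-operated wild-type fish. All injured fish had a probe cooled in liquid nitrogen held on the apex of the ventricle for 25 seconds and were under tricaine, and sham fish had the probe at room temperature. Each library was poly(A) RNA of 3 pooled ventricles, so the spread between libraries is that of pools and not of single fish. The labels state neither the sex of the fish, nor the strain in which the mutant line was kept, nor whether the fish were homozygous or siblings of the wild type. A difference of strain and a difference made by the mutation cannot be told apart. In whole ventricles, fewer cells of a type and less RNA per cell cannot be told apart either.

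The zebrafish ventricle regrows muscle after injury. Epicardial cells and fibroblasts lay down a temporary matrix, macrophages clear debris, and cardiomyocytes at the wound border partly dedifferentiate and divide. Ankrd1 proteins are ankyrin repeat proteins of striated muscle that bind titin in the elastic part of the sarcomere, are also found in the nucleus, and are known in mammals as genes switched on by stretch and by myocardial injury. Which genes of the injured ventricle differ in their transcripts when ankrd1a is mutated is the question of this comparison.

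Counts per library summed to 5623721 to 11219932 in mutant libraries and 6650491 to 7961815 in wild-type libraries. In a principal component analysis of the 8 libraries the first component, with 32.8% of the variance, placed the mutants between 13.5 and 45.4 and the wild type between -48.5 and -5.89, so the genotypes did not overlap on it. Wild-type replicate 1 was the wild-type library nearest to the mutants. Summed levels of the cardiomyocyte markers were 35592 to 56683 CPM (counts per 1000000 counts, after scaling between libraries) in mutants and 33796 to 44472.0 CPM in wild type, so transcripts of heart muscle were abundant in all 8 libraries. Of the liver markers, fabp10a had no count in any of the 8 libraries. The liver marker tfa averaged 75.3 CPM in mutants and 166.9 CPM in wild type (log2 fold change -1.15, edgeR adjusted p = 0.0938). Summed liver markers were 47.7 to 115 CPM in mutants and 102 to 244 CPM in wild type (exact two-sided permutation p = 0.0571). Adjusted over 13 summed measures, this p was 0.186. The 6 T and B cell markers summed to at most 6.07 CPM in mutants and 6.08 CPM in wild type.

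In the injured ventricles of the mutants, the myosin light chain gene MYL9, the smooth muscle actin gene acta2 and the myosin co-chaperone gene SMYD1 were higher than in wild type. So were genes of glycolysis (PFKM, ALDOA), glycogen breakdown (PYGL), glycogen synthesis (GYG1) and fatty acid binding (FABP3). The abundant heart muscle genes MYH7 and actc1a and the smooth muscle myosin gene MYH11 were not called. Other muscle genes were lower, among them TNNC1 and the atrial myosin gene myh6, both with uneven values in the wild-type libraries. Transcription factors of the epicardium (TCF21, TBX18) and the synaptic vesicle gene SYT1 were lower. Of the called matrix genes DCN, LAMA5 and COL6A3 were lower, and TIMP2 and TNC were higher. Of 14986 genes tested with edgeR's quasi-likelihood test, 384 were called different, which is 2.56% of those tested (a call is a Benjamini-Hochberg adjusted p below 0.05 over all tested genes). The calls comprised 168 genes higher in mutants (1.12% of those tested) and 216 lower (1.44%). The median log2 fold change, mutant over wild type, was 1.42 among the genes called higher and -1.51 among those called lower, against 0.00 over all tested genes. Among called genes 117 were higher by at least 1 on the log2 scale and 167 were lower by at least that much. The 4 mutant and 4 wild-type libraries did not overlap in 334 of the called genes, and they did not overlap in 8.03% of all tested genes. The count of calls depended on single libraries: it was 208 without wild-type replicate 2, 229 without wild-type replicate 3 and 250 without mutant replicate 2. It was 534 without wild-type replicate 1.

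**Figure D1:**
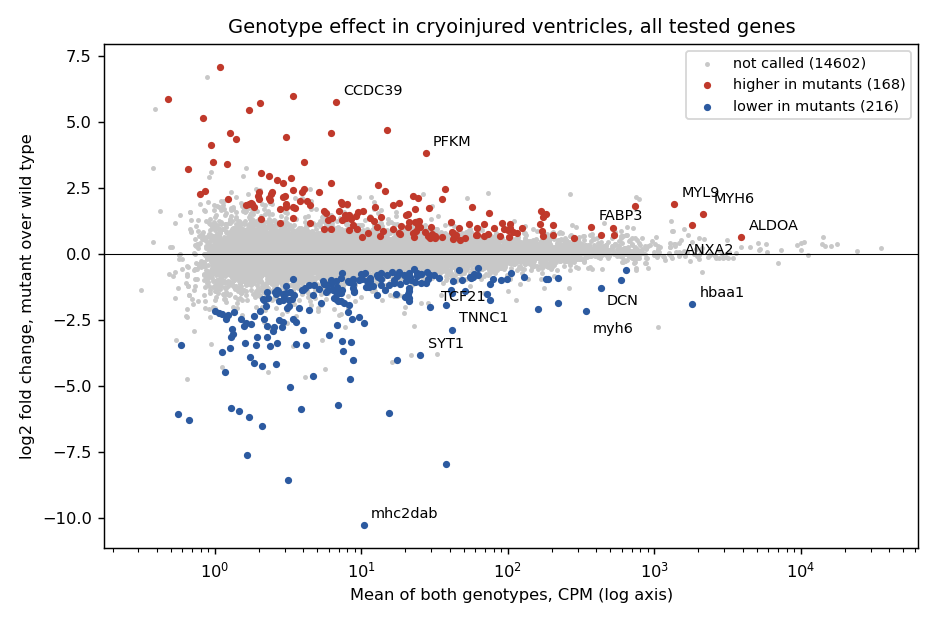
Each point is 1 of 14986 tested genes in cryoinjured ventricles, with the mean CPM of both genotypes on a log axis and the log2 fold change, mutant over wild type, on the vertical axis. Red points are the 168 genes called higher in mutants and blue points the 216 called lower; the named genes include MYL9 and ALDOA among the abundant higher genes and DCN and hbaa1 among the abundant lower ones.

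The mutated gene was looked at first. The symbol ANKRD1 is given to 2 gene IDs, and which of them is ankrd1a is not stated in the table of symbols. ENSDARG00000075263 had 24.3, 25.98, 30.7 and 11.2 CPM in mutants, against 41.9, 13.7, 8.19 and 31.5 CPM in wild type. The groups overlapped fully, and the difference was not called (log2 fold change -0.06, SE 0.47, adjusted p = 0.969 by edgeR). The other ID was near 0 counts and was not tested. A deletion or frameshift need not change the count of a transcript, so these values do not check the genotype labels.

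Genes of muscle contraction included MYL9 and MYH6, which are among the 10 called genes with most counts. MYL9 (ENSDARG00000008030), a regulatory light chain of smooth muscle and non-muscle myosin, had 2718, 2434, 1556 and 1881 CPM in mutants, against 582, 501, 611 and 636 CPM in wild type. Every mutant library was above every wild-type library (log2 fold change 1.88, SE 0.19, adjusted p = 4.91e-05 by edgeR). acta2 (ENSDARG00000045180), the smooth muscle actin, was at 316, 280.0, 321 and 172 CPM in mutants and 128, 64.1, 68.2 and 116 CPM in wild type. It was higher in mutants without overlap (log2 fold change 1.53, SE 0.25, adjusted p = 0.00278 by edgeR), although mutant replicate 4 was low among the mutants. SMYD1 (ENSDARG00000091253), a methyltransferase and myosin co-chaperone of striated muscle, had 295, 317, 207 and 198 CPM in mutants and 108, 51.2, 57.8 and 109 CPM in wild type (log2 fold change 1.64, SE 0.26, adjusted p = 0.00226 by edgeR). MYH6 (ENSDARG00000079564), a cardiac myosin heavy chain by its symbol, had 3027, 2905, 3511 and 3213 CPM in mutants, against 1392, 675, 1298 and 1032 CPM in wild type. All 4 mutant libraries were at least 2905 CPM and no wild-type library exceeded 1392 CPM (log2 fold change 1.53, SE 0.35, adjusted p = 0.0250 by edgeR). The light chain gene myl4 (ENSDARG00000011519) was low in both groups, at 3.25 ± 0.931 CPM in mutants and 0.763 ± 0.122 CPM in wild type (SD, n = 4 each), and was higher in mutants (log2 fold change 2.08, SE 0.34, adjusted p = 0.00278 by edgeR). MYH6 lost its call in 3 of the 8 fits that each left out 1 library. Its highest adjusted p by edgeR, 0.0857, came without wild-type replicate 2. The other 4 of these genes were called in all 8 fits.

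Of 39 tested sarcomere genes 4 were higher in mutants and 2 were lower, that is 15.4% called against 2.56% of all tested genes, and the list's median log2 fold change was 0.13. All gene lists used here were chosen with earlier results of these data known. A called share above 2.56% is therefore no evidence about a list. Abundant sarcomere genes were among those not called. MYH7 (ENSDARG00000079782), the slow and ventricular myosin heavy chain, averaged 25153 ± 3139.9 CPM in mutants and 23054 ± 4935 CPM in wild type (SD, n = 4 each; log2 fold change 0.13, edgeR adjusted p = 0.729). actc1a (ENSDARG00000042535), a cardiac actin, averaged 17755 ± 4859.7 and 14322 ± 3118 CPM in mutants and in wild type (SD, n = 4 each; log2 fold change 0.31, edgeR adjusted p = 0.431). Both genes had overlapping libraries. Another called pair of muscle genes lay outside the lists and was picked after its values were seen. KLHL40 (ENSDARG00000039052), which in mammals stabilises thin filament proteins of skeletal muscle, had 111, 78.4, 64.9 and 44.6 CPM in mutants and 44.0, 24.6, 25.5 and 43.1 CPM in wild type (log2 fold change 1.12, SE 0.25, adjusted p = 0.0213 by edgeR). TXLNB (ENSDARG00000020594), a taxilin of heart and skeletal muscle, had 66.9, 26.7, 30.6 and 15.0 CPM in mutants and 85.0, 122, 158 and 102 CPM in wild type, and was lower in mutants (log2 fold change -1.75, SE 0.40, adjusted p = 0.0240 by edgeR). KLHL40 and TXLNB lost their calls in 4 to 5 of the 8 fits that each left out 1 library. By edgeR the adjusted p was highest without wild-type replicate 2 for KLHL40 (0.0776) and without mutant replicate 2 for TXLNB (0.0799).

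**Figure D2:**
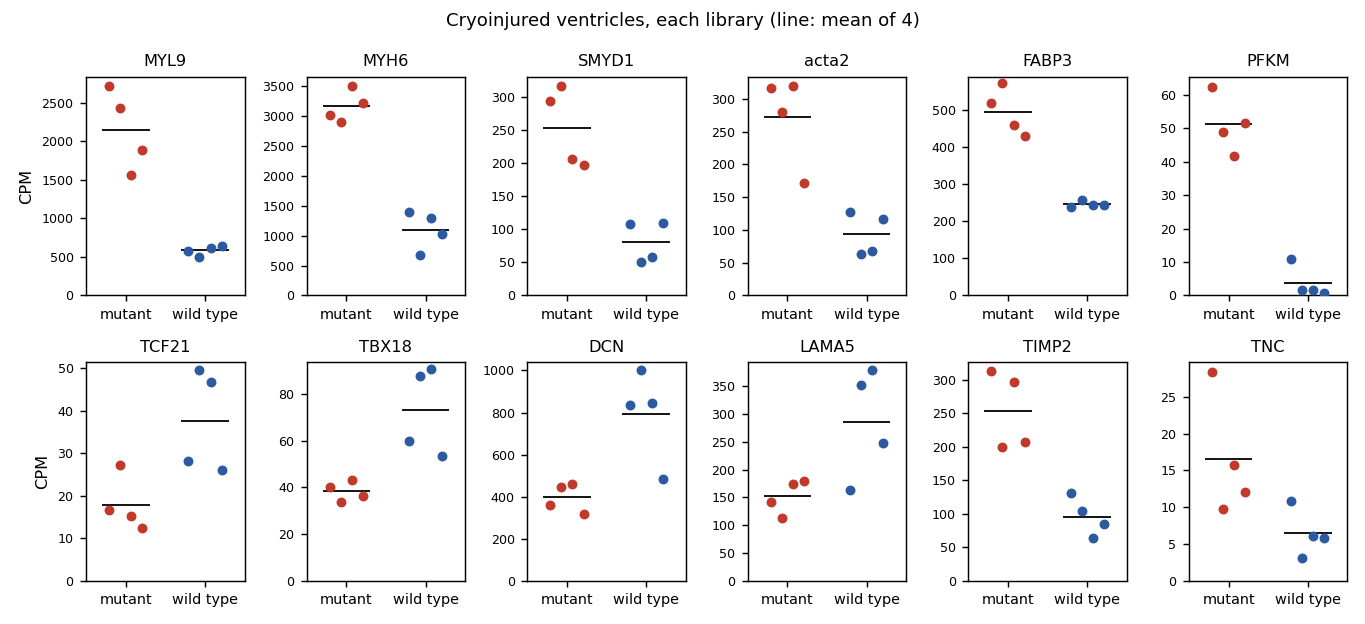
CPM of 12 called genes in each injured library, with mutants on the left and wild type on the right of every panel, a line at the mean of 4 libraries and a vertical axis that starts at 0. Muscle and metabolic genes in the top row lie higher in mutants. The bottom row holds epicardial and matrix genes, of which TCF21, TBX18, DCN and LAMA5 lie lower and TIMP2 and TNC higher.

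Genes of fast skeletal muscle, the atrial myosin gene myh6 and the alpha globins of red blood cells were lower in mutants, and their wild-type values were uneven, with 1 or 2 libraries far above the others. Of 37 tested skeletal muscle genes 7 were called lower and none higher (18.9% called), with a list median of -0.96. pvalb2 (ENSDARG00000002768), a parvalbumin of fast muscle, had 2.95, 0.169, 4.56 and 0.385 CPM in mutants, against 93.0, 0.930, 9.30 and 27.7 CPM in wild type. MYL1 (ENSDARG00000017441), a fast muscle myosin light chain, had 0.670, 0.506, 2.34 and 0.694 CPM in mutants and 36.5, 1.16, 3.10 and 14.8 CPM in wild type. myha (ENSDARG00000095930), a myosin heavy chain of muscle, had 0, 0, 0.986 and 0 CPM in mutants and 42.1, 0.233, 1.36 and 10.8 CPM in wild type. In all 3 genes wild-type replicate 1 was highest and wild-type replicate 4 next, and wild-type replicate 2 lay within the mutant range. pvalb1 (ENSDARG00000037789) had the same order in wild type, at 49.2, 1.05, 2.48 and 12.0 CPM, and at most 1.48 CPM in mutants. The log2 fold changes were -4.03 for pvalb2, -3.70 for MYL1, -5.74 for myha and -4.73 for pvalb1 (edgeR adjusted p = 0.0440, 0.0279, 0.0249 and 0.0260 in that order). None of the 37 genes was called without wild-type replicate 1, and the list median was then -0.51. None was called either without mutant replicate 1, 2 or 4, or in the 8 injured libraries alone, with list medians of -0.83, -0.995, -0.66 and -0.77 in that order. When only genes with a mean of at least 10 CPM were fitted, 17 genes of the list were tested and none was called. The list median was -0.010 in that fit. Without wild-type replicate 1 the parvalbumin pvalb2 had a log2 fold change of -2.66 (edgeR adjusted p = 0.129). The summed level of the skeletal muscle markers, which is carried by ckma and ACTA1 genes that heart muscle also uses, was 4370 to 11964 CPM in mutants and 4819 to 7297 CPM in wild type (difference of mean log2 sums 0.16, exact two-sided permutation p = 0.686). It is 1 of 13 summed measures tested in this way, and after Benjamini-Hochberg adjustment over the 13 the smallest p was 0.186.

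TNNC1 (ENSDARG00000037539), a troponin C of heart and slow muscle by its symbol, had 5.49, 12.0, 10.1 and 12.2 CPM in mutants, against 151, 18.1, 31.9 and 91.0 CPM in wild type. Its wild-type libraries had the same order, with replicate 1 highest and replicate 4 next (log2 fold change -2.87, SE 0.56, adjusted p = 0.00989 by edgeR). No wild-type library overlapped the mutants, which a rule by which TNNC1 was named required. TNNC1 was far less abundant than the cardiac troponin T gene TNNT2 (ENSDARG00000020610), which averaged 2886 CPM in mutants and 2926 CPM in wild type. myh6 (ENSDARG00000090637), whose lower-case symbol is that of the zebrafish atrial myosin heavy chain, had 91.1, 92.6, 132 and 181 CPM in mutants and 1141, 143, 204 and 742 CPM in wild type. Replicates 1 and 4 of the wild type were again the highest, while replicate 2 of the wild type lay below mutant replicate 4 (log2 fold change -2.16, SE 0.51, adjusted p = 0.0309 by edgeR). It went the opposite way to the ID with the symbol MYH6, and how reads shared between such paralogs were divided is not given in the sources used here. Of 24 tested genes of the atrium and bulbus arteriosus, the outflow chamber with smooth muscle, 3 were higher and 1 lower (16.7% called; median 0.22). These 4 are MYL9, acta2, MYH6 and myh6, of which 3 are also members of the sarcomere list. Among this list's defining markers, elnb, the elastin of the bulbus, averaged 42.1 CPM in mutants and 38.5 CPM in wild type, and MYH11, the smooth muscle myosin, 73.4 CPM and 77.2 CPM in the same order; neither was called. The summed level of the atrial and bulbus markers was 3361 to 4136 CPM in mutants and 987 to 2781 CPM in wild type. The mean log2 of this sum was 1.07 higher in mutants. The exact two-sided permutation p was 0.0286, the smallest that 4 against 4 libraries can give, and 0.186 after adjustment over the 13 measures. Most of this sum is the gene with the symbol MYH6, which averaged 3164 CPM in mutants and 1099 CPM in wild type, so it is no separate evidence beside that gene. That ID was counted as an atrial marker by its symbol alone, and its zebrafish name was not checked. The ID with the zebrafish atrial symbol, myh6, was lower in mutants. The part of atrial or outflow tissue in the values of MYL9, acta2 and the myosin genes was not tested.

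Globin genes were lower as well. hbaa1 (ENSDARG00000097011), an alpha globin, had 437, 1285, 616 and 728 CPM in mutants, against 5801, 1144, 2873 and 1603 CPM in wild type. Replicate 1 of the wild type was highest, and replicate 2 of the wild type lay below mutant replicate 2 (log2 fold change -1.90, SE 0.44, adjusted p = 0.0249 by edgeR). hbaa2 (ENSDARG00000069735) had 31.1, 107, 54.6 and 51.3 CPM in mutants and 647, 72.9, 197 and 115 CPM in wild type (log2 fold change -2.08, SE 0.54, adjusted p = 0.0473 by edgeR). They were the only 2 of 27 tested erythrocyte genes to be called (7.41%), the list median was -0.74, and 21 of its members lay below 0. Summed erythrocyte markers were 508 to 1465 CPM in mutants and 1222 to 6526 CPM in wild type (difference of mean log2 sums -1.62, exact two-sided permutation p = 0.0571). Without wild-type replicate 1 no erythrocyte gene was called lower, 1 was called higher, and the list median was -0.16. Neither globin was called without mutant replicate 1, 3 or 4 or wild-type replicate 3, with the replicate number as a block, or in the 8 injured libraries alone, and the list medians of these fits were -0.90 to -0.49. Which part blood left in the ventricles has in this was not tested. pvalb2, MYL1, myha, pvalb1, myh6, hbaa1 and hbaa2 lost their calls in 4 to 5 of the 8 fits that each left out 1 library. Adjusted p-values by edgeR were highest without wild-type replicate 1 for pvalb2 (0.129), myha (0.0791), pvalb1 (0.0934) and hbaa2 (0.150), without mutant replicate 2 for MYL1 (0.0831) and myh6 (0.0942) and without mutant replicate 1 for hbaa1 (0.0808).

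**Figure D3:**
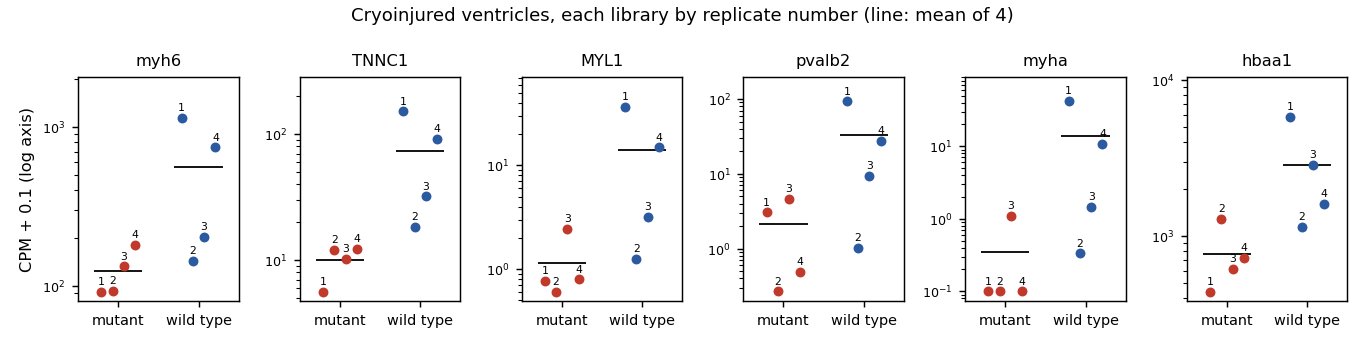
CPM + 0.1 on a log axis for 6 genes called lower in mutants, in each injured library, with mutants left and wild type right; digits are replicate numbers and lines the mean of 4. Wild-type replicate 1 is the highest library in every panel, and replicate 4 is the next highest for myh6, TNNC1, MYL1, pvalb2 and myha, while for hbaa1 it is replicate 3.

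Genes that answer to stretch, dedifferentiation and division were called at shares near the 2.56% of all tested genes or below it. Of 31 tested genes of the YAP pathway and mechanical stretch, which include the family of ankrd1a, 1 was called, lower in mutants (3.23% called; median -0.06). FHL2 (ENSDARG00000003991), a LIM protein that binds titin, had 51.9, 38.97, 52.5 and 46.4 CPM in mutants, against 135, 124, 91.3 and 65.7 CPM in wild type. All mutant libraries were below all wild-type libraries (log2 fold change -1.13, SE 0.27, adjusted p = 0.0347 by edgeR). FHL2 lost its call in 7 of the 8 fits that each left out 1 library. Its highest adjusted p by edgeR, 0.103, came without mutant replicate 2. Of 45 border zone and dedifferentiation genes acta2 was the only one called (2.22% called; median 0.06). Without wild-type replicate 1, 5 genes of this list were called higher and 1 lower. nppa (ENSDARG00000052960), a natriuretic peptide of stressed heart muscle, averaged 2439 ± 607 CPM in mutants and 1614 ± 848 CPM in wild type (SD, n = 4 each; log2 fold change 0.60, edgeR adjusted p = 0.290). None of 45 cell cycle genes was called (median 0.16, smallest edgeR adjusted p = 0.122). The replication clamp PCNA (ENSDARG00000054155) averaged 94.0 ± 23.5 CPM in mutants and 83.8 ± 30.0 CPM in wild type (SD, n = 4 each; log2 fold change 0.16, SE 0.24, edgeR adjusted p = 0.790).

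Among epicardial genes the transcription factors TCF21 and TBX18 and the semaphorin SEMA3E fell, and ANXA2 and TGM2, which many cell types make, rose. TCF21 (ENSDARG00000036869), a factor of epicardial cells and the fibroblasts that come from them, had 16.6, 27.16, 15.2 and 12.4 CPM in mutants, against 28.2, 49.5, 46.9 and 26.2 CPM in wild type. Mutant replicate 2 was above the lowest wild-type library, and the other mutants were below all wild-type libraries (log2 fold change -1.09, SE 0.23, adjusted p = 0.0141 by edgeR). TBX18 (ENSDARG00000036930), a T-box factor of the epicardium, had 40.1, 33.7, 43.0 and 36.3 CPM in mutants and 59.9, 87.8, 90.5 and 53.3 CPM in wild type without overlap (log2 fold change -0.93, SE 0.19, adjusted p = 0.0134 by edgeR). SEMA3E (ENSDARG00000036571), a secreted semaphorin, was at most 2.22 CPM in mutants and at least 4.32 CPM in wild type (log2 fold change -1.71, SE 0.27, adjusted p = 0.00232 by edgeR). ANXA2 (ENSDARG00000003216), a membrane and calcium binding annexin made by many cell types, went the other way, with 2770.2, 2786, 2398 and 1916 CPM in mutants and 1613, 952, 825 and 1202 CPM in wild type (log2 fold change 1.104, SE 0.23, adjusted p = 0.0132 by edgeR). TGM2 (ENSDARG00000074094), a crosslinking enzyme of the matrix, was the other higher member and lay outside the naming rule (log2 fold change 0.61, SE 0.16, adjusted p = 0.0442 by edgeR). Of 26 tested epicardial genes 2 were higher and 3 lower (19.2% called), 17 lay below 0 and the median was -0.13. Without wild-type replicate 2 the epicardial list held 1 call, and without 1 library its median ran from -0.22 to -0.063. The summed level of 4 defining epicardial markers was 246 to 395 CPM in mutants and 352 to 455 CPM in wild type (difference of mean log2 sums -0.38, exact two-sided permutation p = 0.171). In that sum ALDH1A2 is the most abundant, at means of 246 CPM and 269.9 CPM in the same order.

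Of 5 called matrix genes 3 were lower and 2 higher in mutants. DCN (ENSDARG00000012066), the collagen-binding proteoglycan decorin, had 362, 447, 458 and 318 CPM in mutants, against 834, 1004, 845 and 482 CPM in wild type. All mutants were below all wild-type libraries (log2 fold change -0.998, SE 0.20, adjusted p = 0.0108 by edgeR). LAMA5 (ENSDARG00000058543), a laminin chain of basement membranes, had 142, 113, 173 and 180.0 CPM in mutants and 163, 352, 379 and 248 CPM in wild type, and wild-type replicate 1 lay within the mutant range (log2 fold change -0.91, SE 0.22, adjusted p = 0.0352 by edgeR). COL6A3 (ENSDARG00000077139), a chain of the beaded filament collagen VI, averaged 509 ± 89.7 CPM in mutants and 770.3 ± 146 CPM in wild type (SD, n = 4 each; log2 fold change -0.60, SE 0.16, adjusted p = 0.0479 by edgeR). Its highest mutant library, at 630 CPM, was above its lowest wild-type library, at 627 CPM. In contrast, TIMP2 (ENSDARG00000075261), an inhibitor of matrix metalloproteinases, had 313, 199.6, 296 and 208 CPM in mutants and 132, 104, 63.6 and 84.3 CPM in wild type (log2 fold change 1.41, SE 0.28, adjusted p = 0.0108 by edgeR). TNC (ENSDARG00000021948), tenascin C of wound matrix, had 28.4, 9.78, 15.8 and 12.1 CPM in mutants and 10.9, 3.14, 6.08 and 5.81 CPM in wild type, with 1 mutant library below wild-type replicate 1 (log2 fold change 1.35, SE 0.34, adjusted p = 0.0412 by edgeR). FN1 (ENSDARG00000006526), the fibronectin of wound matrix, had 1622, 1199, 1917 and 1714 CPM in mutants and 2784, 2186, 3189 and 2231 CPM in wild type; the libraries did not overlap but the difference was not called (log2 fold change -0.69, SE 0.20, edgeR adjusted p = 0.0740).

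Of 48 tested matrix genes 2 were higher and 3 lower (10.4% called against 2.56% of all genes), 32 lay below 0 and the median was -0.27. This list too was chosen with earlier results of these data known, so its share is no evidence about it. The list's median was -0.34 to -0.13 without 1 library, nearest to 0 without mutant replicate 4. Summed fibroblast markers were 3455 to 5305 CPM in mutants and 4436 to 4817 CPM in wild type (exact two-sided permutation p = 0.400), and their part in these values was not tested. A further 3 lower genes outside the lists were picked after their values were seen. MXRA8 (ENSDARG00000062222), a membrane protein of fibroblasts, averaged 54.2 ± 10.4 CPM in mutants and 104 ± 20.4 CPM in wild type, and CILP (ENSDARG00000053362), a matrix protein of injured heart and cartilage, 67.9 ± 21.6 CPM and 131 ± 36.1 CPM in the same order (SD, n = 4 each; log2 fold changes -0.94 and -0.95, edgeR adjusted p = 0.0473 and 0.0498). krt15 (ENSDARG00000036840), a keratin, had 213, 262, 212 and 310.1 CPM in mutants and 322, 566, 1011 and 557 CPM in wild type (log2 fold change -1.30, SE 0.30, adjusted p = 0.0260 by edgeR). Of the 8 fits that each left out 1 library, TBX18 and ANXA2 lost their calls in 1, TCF21 in 2 and LAMA5 in 4. COL6A3, TNC, CILP and krt15 lost theirs in 5 of these fits, MXRA8 in 6 and TGM2 in 7. By edgeR the adjusted p was highest without wild-type replicate 2 for TCF21 (0.0561), TBX18 (0.0516), ANXA2 (0.0508), COL6A3 (0.164), MXRA8 (0.136) and CILP (0.141), without wild-type replicate 3 for LAMA5 (0.125) and krt15 (0.102), without mutant replicate 3 for TGM2 (0.113) and without mutant replicate 1 for TNC (0.149).

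Both plasmalemma vesicle genes of endothelium were lower. Their proteins form the diaphragms of fenestrated and caveolar vessels. plvapb (ENSDARG00000045003) had 6.30, 7.25, 10.8 and 7.71 CPM in mutants and 26.3, 18.5, 17.0 and 21.9 CPM in wild type (log2 fold change -1.38, SE 0.25, adjusted p = 0.00569 by edgeR), and plvapa (ENSDARG00000076972) had 2.81, 3.54, 4.44 and 2.47 CPM in mutants and 10.7, 16.5, 8.06 and 12.5 CPM in wild type (log2 fold change -1.86, SE 0.40, adjusted p = 0.0172 by edgeR). These were the only 2 called of 37 tested endothelial and endocardial genes (5.41%; median 0.00). cdh5 (ENSDARG00000075549), the junction cadherin that marks endothelium, averaged 339 ± 13.5 CPM in mutants and 259.6 ± 37.0 CPM in wild type (SD, n = 4 each; log2 fold change 0.39, edgeR adjusted p = 0.114). Summed endothelial markers were 762 to 834 CPM in mutants and 602 to 755 CPM in wild type (exact two-sided permutation p = 0.0286, and 0.186 after adjustment over the 13 summed measures). Among signalling lists, 1 of 44 genes of the TGF-beta, BMP and activin pathways was called (2.27%; median -0.04). It was SMAD2 (ENSDARG00000006389), which carries activin and TGF-beta signals to the nucleus, at 12.9, 13.3, 16.1 and 13.5 CPM in mutants and 22.7, 25.6, 23.8 and 17.6 CPM in wild type (log2 fold change -0.68, SE 0.16, adjusted p = 0.0326 by edgeR). Of 25 genes of the interleukin 11 and Stat3 pathway 1 was called (4.00%; median -0.03). SOCS2 (ENSDARG00000045557), a cytokine-induced inhibitor of cytokine signalling, had 2.95, 4.22, 5.55 and 3.78 CPM in mutants and 10.7, 10.6, 11.2 and 9.97 CPM in wild type (log2 fold change -1.36, SE 0.30, adjusted p = 0.0197 by edgeR). plvapa, SMAD2 and SOCS2 lost their calls in 3 to 5 of the 8 fits that each left out 1 library. Adjusted p-values by edgeR were highest without mutant replicate 4 for plvapa (0.0620), without wild-type replicate 2 for SMAD2 (0.109) and without mutant replicate 1 for SOCS2 (0.0655).

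All called genes of the glycolysis, glycogen, fatty acid and oxidative phosphorylation lists were higher in injured mutants. PFKM (ENSDARG00000014179), the muscle phosphofructokinase that commits sugar to glycolysis, had 62.2, 48.9, 41.8 and 51.6 CPM in mutants, against 10.9, 1.63, 1.49 and 0.831 CPM in wild type. Replicate 1 of the wild type stood above the other 3 wild-type libraries and below every mutant (log2 fold change 3.81, SE 0.54, adjusted p = 0.00137 by edgeR). ALDOA (ENSDARG00000011665), a muscle aldolase and the most abundant called gene, had 6084, 5170.2, 3808 and 4004 CPM in mutants and 3080.3, 2704, 3499 and 3004 CPM in wild type. The lowest mutant was above the highest wild-type library, wild-type replicate 3 (log2 fold change 0.63, SE 0.15, adjusted p = 0.0258 by edgeR). ALDOC (ENSDARG00000019702), another aldolase, had 964, 698, 509 and 469 CPM in mutants and 472, 368, 424 and 348 CPM in wild type with 1 pair of libraries out of order (log2 fold change 0.71, SE 0.18, adjusted p = 0.0473 by edgeR). pgam1b (ENSDARG00000014068), a phosphoglycerate mutase, averaged 74.9 ± 11.7 CPM in mutants and 46.0 ± 5.58 CPM in wild type (SD, n = 4 each; log2 fold change 0.70, SE 0.15, adjusted p = 0.0140 by edgeR). GAPDH (ENSDARG00000043457), the most abundant glycolysis gene, averaged 11442 ± 2143 CPM in mutants and 8532 ± 1862 CPM in wild type and was not called (SD, n = 4 each; log2 fold change 0.42, edgeR adjusted p = 0.215). Of 43 glycolysis genes 4 were higher and none lower (9.30% called; median 0.15). Without wild-type replicate 1 the list also held 2 genes called lower, and without mutant replicate 1 its median was 0.013. In sham ventricles 1 glycolysis gene was called higher and 3 lower.

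Glycogen and fatty acid genes added 4 calls. PYGL (ENSDARG00000002197), a glycogen phosphorylase that frees sugar from glycogen, had 23.4, 18.4, 24.5 and 23.0 CPM in mutants, against 7.65, 1.86, 1.98 and 3.32 CPM in wild type (log2 fold change 2.60, SE 0.54, adjusted p = 0.0135 by edgeR). GYG1 (ENSDARG00000011934), the glycogenin that primes glycogen synthesis, had 176, 121, 97.6 and 102 CPM in mutants and 64.2, 62.8, 68.6 and 58.8 CPM in wild type (log2 fold change 0.96, SE 0.19, adjusted p = 0.0108 by edgeR). These genes of breakdown and of synthesis were the 2 called of 29 glycogen genes (6.90%; median 0.15). FABP3 (ENSDARG00000023290), the fatty acid binding protein of heart muscle, had 519, 571, 459 and 429 CPM in mutants and 238, 257, 244 and 244 CPM in wild type. The 4 wild-type libraries lay close together and all mutants were above them (log2 fold change 1.01, SE 0.13, adjusted p = 0.000718 by edgeR). ACSL4 (ENSDARG00000004078), which couples long fatty acids to coenzyme A, had 58.6, 36.9, 32.9 and 32.7 CPM in mutants and 24.9, 13.8, 12.5 and 27.5 CPM in wild type (log2 fold change 1.03, SE 0.26, adjusted p = 0.0436 by edgeR). Of 48 genes of fatty acid uptake and oxidation these were the 2 called (4.17%; median 0.16). ACADVL (ENSDARG00000016687), the most abundant of the list that was not called, had 2153, 1847, 2066 and 2304 CPM in mutants and 1009, 752, 852 and 2500.2 CPM in wild type, and wild-type replicate 4 was the highest of the 8 libraries (log2 fold change 0.71, edgeR adjusted p = 0.204). BBOX1 (ENSDARG00000036135), the last enzyme of carnitine synthesis, is outside the list and was picked after its values were seen; it had 194, 128, 177 and 161 CPM in mutants and 59.1, 94.5, 88.8 and 90.01 CPM in wild type (log2 fold change 0.99, SE 0.18, adjusted p = 0.00633 by edgeR).

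Respiratory chain genes held 1 call, and most of their log2 fold changes were small and above 0. Of 83 nuclear genes of oxidative phosphorylation 75 lay above 0, the median was 0.19 and 1 was called (1.2%). It was atp5mf (ENSDARG00000037867), a subunit of ATP synthase, with 141, 147, 78.6 and 137 CPM in mutants and 99.5, 35.3, 48.1 and 43.0 CPM in wild type (log2 fold change 1.16, SE 0.29, adjusted p = 0.0434 by edgeR). All 13 genes of the mitochondrial genome lay above 0 with a median of 0.37, and none was called (smallest edgeR adjusted p = 0.113). Without wild-type replicate 4 the median of the mitochondrial genes was 0.19, and without mutant replicate 2 that of the nuclear genes was 0.10. MT-CO1 (ENSDARG00000063905) averaged 38373 ± 2915 CPM in mutants and 32632 ± 7058 CPM in wild type (SD, n = 4 each). Mitochondrial genes took 13.8% ± 0.498 of all counts in mutants and 12.0% ± 2.87 in wild type (SD, n = 4 each; exact two-sided permutation p = 0.257), and wild-type replicate 4 had the lowest share, 7.91%. ALDOA, ALDOC, pgam1b, PYGL, ACSL4 and atp5mf lost their calls in 1 to 6 of the 8 fits that each left out 1 library. The highest adjusted p by edgeR came without wild-type replicate 2 for ALDOA (0.0921), ALDOC (0.137), pgam1b (0.0556), PYGL (0.0515), ACSL4 (0.140) and atp5mf (0.137).

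In calcium handling and excitability the called genes were calcium sensors, a vesicle protein, a channel and a sodium pump subunit. SYT1 (ENSDARG00000030614), a synaptotagmin that is the calcium sensor of vesicle release in neurons, had 2.55, 3.37, 3.57 and 3.55 CPM in mutants, against 25.2, 62.1, 64.2 and 37.5 CPM in wild type (log2 fold change -3.84, SE 0.32, adjusted p = 7.72e-06 by edgeR). NECAB3 (ENSDARG00000074794), an EF-hand protein, had 0.804, 1.52, 1.23 and 1.70 CPM in mutants and 13.3, 14.1, 14.3 and 11.7 CPM in wild type (log2 fold change -3.31, SE 0.33, adjusted p = 4.91e-05 by edgeR). Its relative NECAB2 (ENSDARG00000056745) went the other way, with 7.37, 3.04, 2.22 and 3.93 CPM in mutants and 0.987, 0.698, 0.124 and 0.311 CPM in wild type (log2 fold change 2.94, SE 0.50, adjusted p = 0.00435 by edgeR). cacna1aa (ENSDARG00000037905), a P/Q-type calcium channel, had 1.21, 3.21, 0.863 and 2.08 CPM in mutants and 3.95, 13.7, 16.0 and 13.4 CPM in wild type (log2 fold change -2.69, SE 0.63, adjusted p = 0.0271 by edgeR). atp1a3a (ENSDARG00000018259), the pump subunit, lay outside the naming rule and is given as the last called member, with 17.4, 6.92, 14.3 and 23.6 CPM in mutants and 3.45, 5.70, 4.34 and 6.85 CPM in wild type (log2 fold change 1.62, SE 0.40, adjusted p = 0.0398 by edgeR). Of 47 tested genes of the list 2 were higher and 3 lower (10.6% called; median -0.17). Of the 9 tested genes of the neuron list SYT1 was the only one called, and summed neuronal markers were 1.07 to 1.85 CPM in mutants and 1.36 to 1.74 CPM in wild type. cacna1aa and atp1a3a lost their calls in 5 to 6 of the 8 fits that each left out 1 library. By edgeR the adjusted p was highest without mutant replicate 1 for cacna1aa (0.0804) and without mutant replicate 4 for atp1a3a (0.115).

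Of the called antigen presentation genes, the class II gene mhc2dab was lower in injured mutants and 5 others were higher. mhc2dab (ENSDARG00000079105), an MHC class II beta gene, had no count in any mutant library, against 28.4, 11.7, 10.8 and 32.0 CPM in wild type, and was at least 54.9-fold lower in mutants (edgeR adjusted p = 0.0119; 3 counts per library taken as the floor). In sham ventricles it had 0, 0, 2.54 and 5.89 CPM in mutants and 14.7, 2.06, 0.617 and 0 CPM in wild type, and it was not called there (edgeR adjusted p = 0.691). The class II genes mhc2dga (ENSDARG00000103716), mhc2dgb (ENSDARG00000104635) and mhc2dhb (ENSDARG00000116524) had means of 3.34, 11.9 and 28.9 CPM in mutants. Among injured wild-type libraries only replicate 1 had any count of them, at 0.247, 1.97 and 4.56 CPM in that order, and all 3 genes were called higher in mutants (edgeR adjusted p = 0.00317, 0.00866 and 0.0121). Sham wild-type replicate 3 also held counts of them, namely 3, 7 and 14 in the same order. With DESeq2 mhc2dga kept its call (DESeq2 adjusted p = 9.79e-05), while mhc2dgb and mhc2dhb lost theirs (DESeq2 adjusted p = 0.0684 and 0.155). b2ml (ENSDARG00000015887), the light chain of class I molecules, had 468, 510.3, 572 and 598 CPM in mutants and 291, 342, 363 and 326 CPM in wild type (log2 fold change 0.70, SE 0.14, adjusted p = 0.00971 by edgeR). PSMB8 (ENSDARG00000001303), a subunit of the immunoproteasome and the sixth called member, had 22.6, 28.8, 22.7 and 44.4 CPM in mutants and 9.00, 14.7, 10.2 and 9.03 CPM in wild type (log2 fold change 1.47, SE 0.32, adjusted p = 0.0176 by edgeR). Of 32 genes 5 were higher and 1 lower (18.8% called; median 0.16). MHC genes are highly variable between zebrafish lines, and whether reads of other alleles were counted under these IDs was not tested. Of 37 macrophage and neutrophil genes 2 were higher (5.41%; median 0.31). cd68 (ENSDARG00000055504), a lysosomal protein of macrophages, had 47.0, 89.9, 64.7 and 127 CPM in mutants and 46.9, 38.4, 33.9 and 47.8 CPM in wild type (log2 fold change 0.98, SE 0.24, adjusted p = 0.0377 by edgeR). adam8a (ENSDARG00000001452), a leukocyte metalloprotease, had 96.9, 70.7, 122 and 84.3 CPM in mutants and 37.6, 64.6, 27.9 and 41.7 CPM in wild type (log2 fold change 1.12, SE 0.28, adjusted p = 0.0431 by edgeR). Summed macrophage markers were 210 to 533 CPM in mutants and 218 to 355 CPM in wild type (exact two-sided permutation p = 0.771). PSMB8, cd68 and adam8a lost their calls in 2 to 6 of the 8 fits that each left out 1 library. Adjusted p-values by edgeR were highest without wild-type replicate 3 for cd68 (0.117) and adam8a (0.131) and without mutant replicate 4 for PSMB8 (0.0641).

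Further genes with the largest fold changes belonged to no list. tcn2 (ENSDARG00000036481), which carries vitamin B12 into cells, had 35.6, 45.0, 35.4 and 43.2 CPM in mutants, against 12.1, 8.02, 11.2 and 5.71 CPM in wild type (log2 fold change 2.11, SE 0.22, adjusted p = 4.91e-05 by edgeR). CCDC39 (ENSDARG00000100981), which in mammals sets the spacing of dynein arms in cilia, had 8.17, 14.7, 15.7 and 14.4 CPM in mutants and 0, 0.116, 0.248 and 0.519 CPM in wild type (log2 fold change 5.74, SE 0.68, adjusted p = 0.000246 by edgeR). RNASEK (ENSDARG00000104458), a small membrane protein associated with the proton pump of endosomes, averaged 37.0 ± 4.57 CPM in mutants and 8.09 ± 3.97 CPM in wild type (SD, n = 4 each; log2 fold change 2.201, edgeR adjusted p = 0.0108). GP1BB (ENSDARG00000074441), a subunit of the platelet and thrombocyte receptor for von Willebrand factor, had 13.7, 32.1, 32.5 and 36.6 CPM in mutants and 12.5, 5.00, 5.08 and 7.79 CPM in wild type (log2 fold change 1.92, SE 0.43, adjusted p = 0.0227 by edgeR). SERF2 (ENSDARG00000075881) had 32.8, 23.1, 19.3 and 27.6 CPM in mutants and 5.06, 8.84, 12.2 and 2.39 CPM in wild type (log2 fold change 1.86, SE 0.32, adjusted p = 0.00422 by edgeR). SPOCK3 (ENSDARG00000070266), a testican proteoglycan of the matrix and one of the 10 called genes with most counts, had 659.9, 707, 557 and 854 CPM in mutants and 272, 299, 308 and 519.8 CPM in wild type; wild-type replicate 4 stood above the other wild-type libraries and below every mutant (log2 fold change 0.99, SE 0.19, adjusted p = 0.00834 by edgeR).

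Lower genes outside the lists spanned membrane enzymes, transporters and the cytoskeleton. NT5E (ENSDARG00000071017), the surface enzyme CD73 that makes adenosine from AMP, had 7.64, 13.3, 12.6 and 12.8 CPM in mutants, against 20.7, 57.7, 69.9 and 38.8 CPM in wild type (log2 fold change -2.01, SE 0.39, adjusted p = 0.00971 by edgeR). smpd5 (ENSDARG00000059811), a sphingomyelinase, had 1.88, 5.40, 2.095 and 2.54 CPM in mutants and 17.3, 14.0, 22.2 and 17.4 CPM in wild type (log2 fold change -2.61, SE 0.32, adjusted p = 0.000330 by edgeR). slc7a2 (ENSDARG00000037097), a transporter of arginine and lysine, had 1.47, 3.71, 2.46 and 2.93 CPM in mutants and 7.52, 12.9, 18.6 and 18.9 CPM in wild type (log2 fold change -2.45, SE 0.30, adjusted p = 0.000330 by edgeR). In these 3 genes every mutant library was below every wild-type library, which the rule by which they were named required. ADAMTSL2 (ENSDARG00000074033), a glycoprotein of microfibrils, had 4.82, 3.04, 2.83 and 1.77 CPM in mutants and 6.04, 28.6, 22.9 and 7.16 CPM in wild type, where replicates 2 and 3 were high and replicates 1 and 4 close to the mutants (log2 fold change -2.40, SE 0.55, adjusted p = 0.0236 by edgeR). REV3L (ENSDARG00000058801), the catalytic subunit of a DNA polymerase that copies past damaged bases, averaged 15.5 ± 5.08 CPM in mutants and 59.8 ± 24.2 CPM in wild type, and MAP1A (ENSDARG00000059601), a microtubule-associated protein, 2.81 ± 1.29 CPM and 13.3 ± 3.82 CPM in the same order (SD, n = 4 each; log2 fold changes -1.94 and -2.19, edgeR adjusted p = 0.00949 and 0.00633). GP1BB and ADAMTSL2 lost their calls in 4 to 5 of the 8 fits that each left out 1 library. The highest adjusted p by edgeR came without wild-type replicate 2 for GP1BB (0.0784) and ADAMTSL2 (0.0897).

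Several lists, among them those of stress and inflammation, held no call in edgeR at 384 calls over all genes. At the share of 2.56% called over all tested genes, lists of these sizes hold few calls or none. The absence of calls is therefore no result about their members. None was called of 33 immediate early genes (median 0.27), 37 clock genes (median -0.31, 31 of them below 0), 31 glucocorticoid and stress genes (median -0.14), 23 interferon response genes (median -0.02), 10 T, B and natural killer cell genes (median 0.14), 9 complement and acute phase genes (median -0.06) and 78 ribosomal protein genes (median 0.04). Of 48 heat shock and unfolded protein genes 41 lay above 0, with a median of 0.42, and the smallest edgeR adjusted p was 0.0521. Single libraries moved these medians: without mutant replicate 1 the heat shock median was 0.16, and without mutant replicate 3 that of the immediate early genes was 0.076 and that of the clock genes -0.47. Some fits without 1 library called 1 member of the immediate early, T cell, complement, heat shock or ribosomal list. The median standard error over all tested genes was 0.25 on the log2 scale. Of 19 genes of retinoic acid and lipid transport, RBP4 (ENSDARG00000101199), the plasma carrier of retinol, was the only one called, with 97.9, 103, 91.1 and 68.4 CPM in mutants and 179.8, 156, 191 and 142 CPM in wild type (log2 fold change -0.89, SE 0.17, adjusted p = 0.00866 by edgeR). It was also the only one called of 5 tested liver and plasma protein genes. Together the 31 lists held 54 of the 384 called genes, and 330 called genes were in none. How many of all tested genes the lists hold together was not counted, so this number has no share beside it.

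**Figure D4:**
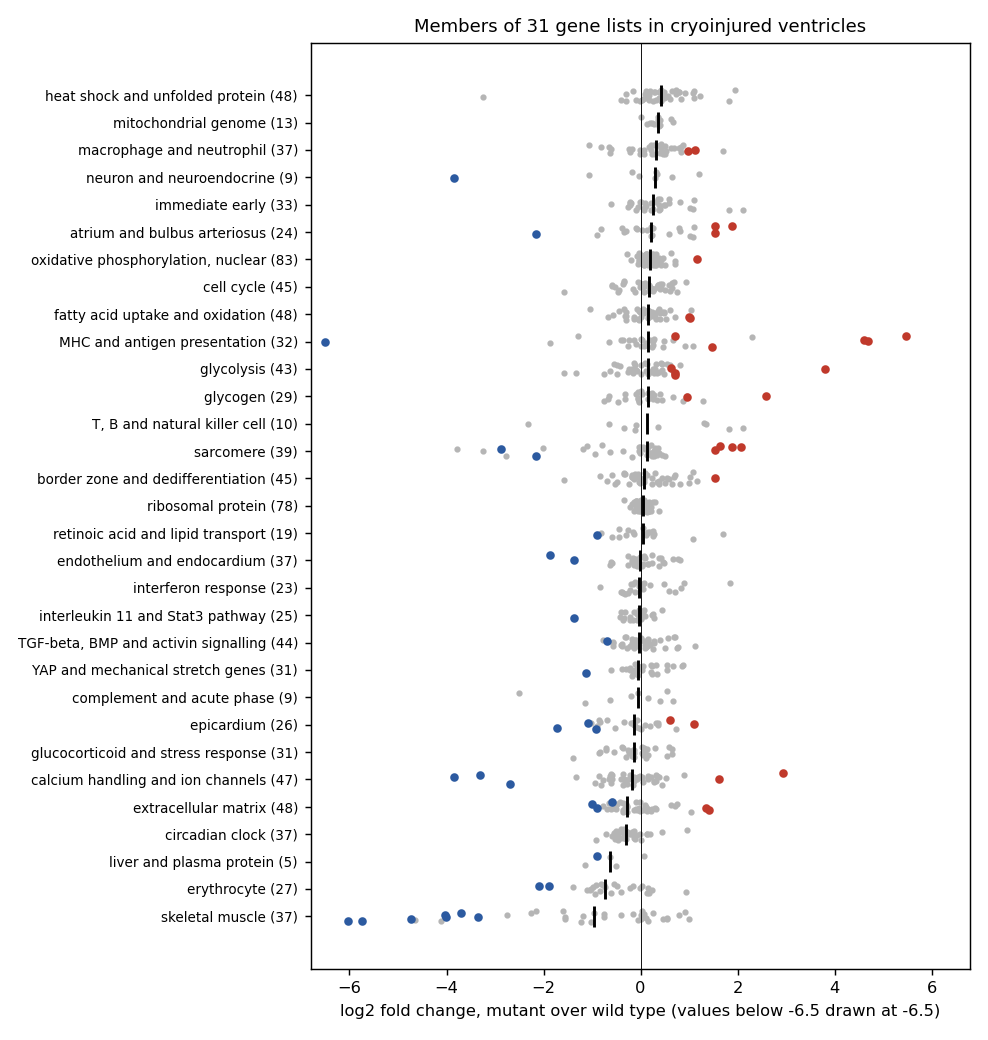
Each row is a gene list, with the number of tested members in brackets, and each point a member's log2 fold change, mutant over wild type, in injured ventricles; red and blue points are called higher and lower, grey points are not called, and black bars are medians. Medians run from -0.96 for skeletal muscle genes to 0.42 for heat shock and unfolded protein genes, and the erythrocyte, clock and matrix lists also have medians below 0.

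The sham libraries, which are other libraries of both genotypes, show which of these differences were also present without freezing. In sham ventricles 870 genes were called (5.81%), and 204 of the 384 genes called after injury were among them, all with the same sign; this is 53.1% of the injured and 23.4% of the sham calls. For these 204 genes the median absolute log2 fold change was 1.64 in injured and 1.67 in sham ventricles. MYL9, SMYD1, acta2, PFKM, FABP3, SYT1, NECAB3 and tcn2 were in this set. The other 180 genes called after injury had a median absolute log2 fold change of 1.40 in injured and 0.55 in sham ventricles, and 160 of them had the same sign in both. That a gene was called in one condition and not in the other does not show that the difference changed. In the test of that difference, the interaction of genotype and injury, no gene was called by edgeR, 1155 genes (7.71%) had an unadjusted p below 0.05, and DESeq2 called 42. Of the 180 genes 52 had an unadjusted interaction p below 0.05, of which 25 were higher and 27 lower in injured mutants. The 180 were chosen, in the same fit, as called after injury and not called in sham ventricles. Smaller sham fold changes and more small interaction p-values among them follow in part from that choice, and are no evidence of an effect particular to injury.

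Genes named next come from those 52, and none of their interaction p-values passed the adjustment over all genes. vgll2b (ENSDARG00000053773), a transcription cofactor of developing muscle, had 14.1, 13.5, 12.1 and 6.78 CPM in injured mutants, against 2.71, 3.84, 3.22 and 2.49 CPM in injured wild type (log2 fold change 1.91, SE 0.33, adjusted p = 0.00435 by edgeR), while its log2 fold change in sham ventricles was -0.15 (interaction adjusted p = 0.286 by edgeR). epdl1 (ENSDARG00000076386), an ependymin-like secreted protein, had 116, 44.9, 91.4 and 100.1 CPM in injured mutants and 10.6, 32.7, 30.8 and 27.7 CPM in injured wild type, and log2 fold changes of 1.79 in injured and 0.36 in sham ventricles (interaction adjusted p = 0.478 by edgeR). hrh3 (ENSDARG00000035942), a histamine receptor, had 139, 61.2, 20.6 and 32.7 CPM in injured mutants and 29.1, 4.65, 2.85 and 9.76 CPM in injured wild type, with mutant replicate 1 far above the others. Its log2 fold change was 2.45 in injured and -0.24 in sham ventricles (interaction adjusted p = 0.441 by edgeR). rtn4rl2a (ENSDARG00000052012), a Nogo receptor relative, had 24.5, 79.6, 51.9 and 23.4 CPM in injured mutants and 18.7, 8.95, 10.2 and 15.9 CPM in injured wild type, with log2 fold changes of 1.73 and -0.34 in injured and in sham ventricles (interaction adjusted p = 0.439 by edgeR). ACSL4 and KLHL40 were likewise higher in injured mutants, by 1.03 and 1.12, with sham values of -0.27 and -0.22 (interaction adjusted p = 0.320 and 0.309 by edgeR).

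In the other direction, TCF21, krt15, FHL2 and NT5E had injured log2 fold changes of -1.09, -1.30, -1.13 and -2.01, and sham values of -0.24, 0.10, -0.29 and -0.76 in the same order. Their interaction adjusted p-values by edgeR were 0.548, 0.394, 0.628 and 0.609. SEMA3F (ENSDARG00000055373), a secreted semaphorin that repels growing axons and vessels, was picked after its values were seen. It had 3.89, 3.04, 8.13 and 4.32 CPM in injured mutants and 17.6, 12.0, 11.3 and 10.7 CPM in injured wild type (log2 fold change -1.40, SE 0.25, adjusted p = 0.00569 by edgeR), with a sham log2 fold change of -0.05 (interaction adjusted p = 0.309 by edgeR). TNNC1, MYL1 and mhc2dab belong to the same set, with sham log2 fold changes of -0.68, -0.55 and -0.95 (interaction adjusted p = 0.478, 0.587 and 0.320 by edgeR), and in TNNC1 and MYL1 wild-type replicates 1 and 4 were the highest libraries. The light chain myl4 had the reverse pattern, with a log2 fold change of 2.08 in injured and 4.15 in sham ventricles (interaction adjusted p = 0.309 by edgeR). hrh3 and rtn4rl2a lost their calls in 5 of the 8 fits that each left out 1 library. By edgeR the adjusted p was highest without mutant replicate 1 for hrh3 (0.148) and without mutant replicate 2 for rtn4rl2a (0.174).

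**Figure D5:**
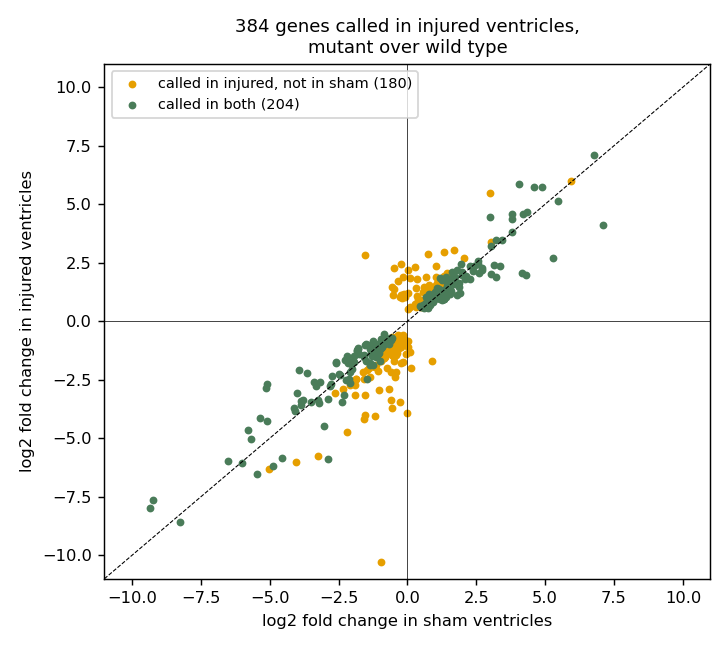
The 384 genes called in injured ventricles, with the log2 fold change, mutant over wild type, in sham ventricles on the horizontal axis and in injured ventricles on the vertical axis; the dashed line marks equal values. Green points are the 204 genes also called in sham ventricles, which lie along the line, and orange points are the 180 others, which lie nearer to 0 on the sham axis.

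Genes on the chromosome of ankrd1a were counted because a line can differ from another strain around an edited locus. Genes were placed on chromosomes by their symbols in the RefSeq gene list of the GRCz12tu assembly. This placed 11203 of 14986 tested genes and 248 of 384 called genes. In that list ankrd1a is on chromosome 17. Of 428 tested genes placed there 14 were called (3.27%), against 234 of 10775 on the other chromosomes (2.17%), and chromosome 17 ranked 2 of 25 by this share, after chromosome 2 with 3.77%. None of the 50 placed genes nearest to ankrd1a was called, and tested genes that were not placed were left out of this count. Of all placed genes 2.21% were called, and at that share 50 genes hold few calls or none. Whether the lines differ around the locus was not tested. APOB (ENSDARG00000042780), an apolipoprotein of plasma lipoproteins, had 1.47, 1.69, 2.22 and 1.16 CPM in mutants and 1 wild-type library with any count, and was at least 4.66-fold higher in mutants (edgeR adjusted p = 0.00156). DGLUCY (ENSDARG00000005179), a mitochondrial D-glutamate cyclase, had 10.2, 9.78, 8.01 and 9.79 CPM in mutants and 25.9, 29.8, 18.4 and 57.0 CPM in wild type (log2 fold change -1.80, SE 0.30, adjusted p = 0.00422 by edgeR). reep3a (ENSDARG00000017569), which keeps endoplasmic reticulum off mitotic chromosomes, averaged 19.2 ± 5.36 CPM in mutants and 37.7 ± 4.93 CPM in wild type, and hhipl1 (ENSDARG00000062501), a relative of the hedgehog-binding protein, 30.7 ± 5.64 CPM and 16.8 ± 3.15 CPM in the same order (SD, n = 4 each; log2 fold changes -0.96 and 0.87, edgeR adjusted p = 0.00941 and 0.00971). With vgll2b, these were the 5 called genes of chromosome 17 with the smallest adjusted p.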

How the data were processed

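RNA of 16 libraries was measured by poly(A) RNA sequencing, 8 of them from cryoinjured ventricles, and libraries were grouped by their titles. Expected counts (estimated per gene, not whole) were deposited for 32520 Ensembl gene IDs, and 29201 had a symbol in the symbol table. Per the submitters' processing notes the tools were fastp 0.23.4, STAR 2.7.0 and 2.7.10, and RSEM 1.3.3. The genome build, the annotation and whether strand was used are not given in the sources used here, so values of overlapping genes and near-identical paralogs are uncertain. No per-sample column was left unused.

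Expected counts were rounded. edgeR 4.0.16 in R 4.3.3 (limma 3.58.1) scaled libraries by TMM, filtered genes with filterByExpr over the 4 groups and fitted 4 group means to all 16 libraries. The quasi-likelihood F test compared genotypes in injured and in sham ventricles and tested their difference, with Benjamini-Hochberg adjustment over 14986 genes. Standard errors were derived from the F statistic. CPM are counts per 1000000 counts after TMM scaling. Where all libraries of a group had at most 3 counts of a gene, that group was set to the floor, and folds computed against it are bounds. Marker sums were compared as differences of mean log2 sums, mutant minus wild type. Exact permutation tests of 4 against 4 libraries were two-sided, and their smallest p is 0.0286. Replicate libraries differed by more than sampling noise (chi-square per degree of freedom 10.7 to 35.9), so none was a copy; libraries hold separate pools, by the labels. The sources used here name no molecular identifiers, so reads need not stand for separate molecules. Standard errors and adjusted p-values of the fits take in the spread between libraries, which is that of pools and not of single fish. SDs are likewise between libraries.

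Gene lists, 31 in all, hold 1300 names, of which 899 matched a symbol exactly, 307 after a paralog suffix was dropped and 94 not at all; the members and lists were chosen with earlier results of these data known. Lists are described by counts and medians without a test. Genes named were ANKRD1; the 12 highest and 12 lowest called genes with at least 10 CPM, a symbol and libraries that did not overlap; the 10 called genes with most counts; up to 4 called and 2 uncalled members of a list; the 5 with the largest interaction; and 5 on the chromosome of ankrd1a. Others are said to be picked after their values were seen. Alternatives tried were the removal of each library in turn, a replicate block, a fit to the 8 injured libraries alone, DESeq2 1.42.0, scaling by RLE, a stricter or no filter, and a threshold of 1 on the log2 fold change. The procedure was also run on simulated counts, drawn with the average spread at each expression level. No outlying libraries were built into them, so that run does not show how calls behave where single libraries stand apart. Its outcome is not given here.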

Additional observations from a re-analysis of the deposited data

Results flagged for a closer look

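Of 216 groups of 4 values examined, 18 held a library far from the other 3 of its group. For normally distributed values chance gives such a distance in about 1 group in 20. A group with only 1 library above 0 is always flagged, and the genes share libraries. The 18 can therefore not be set against that rate. Wild-type replicate 1 held 8 of the 18. That library was highest of the wild type for PFKM (10.9 CPM against 0.831 to 1.63), nppa (2876 CPM against 1069.6 to 1329), WIF1 (7.40 CPM against 3.10 to 3.60), and the class II genes mhc2dhb, mhc2dgb and mhc2dga (4.56, 1.97 and 0.247 CPM, the others at 0). It was also highest for APOB (0.123 CPM, the others at 0) and lowest for BBOX1 (59.1 CPM against 88.8 to 94.5). Without this library PFKM had a log2 fold change of 5.28 in place of 3.81, and the 3 class II genes had no count in the other injured wild-type libraries.

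Wild-type replicate 4 stood apart for ACADVL (2500.2 CPM against 752 to 1009) and SPOCK3 (519.8 CPM against 272 to 308), and wild-type replicate 2 for summed neutrophil markers (71.2 CPM against 18.5 to 26.7). Among mutants, replicate 1 was lowest for CCDC39 (8.17 CPM against 14.4 to 15.7) and NT5E (7.64 CPM against 12.6 to 13.3) and highest for ACSL4 (58.6 CPM against 32.7 to 36.9). Mutant replicate 3 was lowest for atp5mf (78.6 CPM against 137 to 147) and highest for myha (0.986 CPM, the others at 0) and MYL1 (2.34 CPM against 0.506 to 0.694). Mutant replicate 4 had the highest summed endothelial markers (834 CPM against 762 to 767).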

How the results depend on the processing

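The 94 genes named were refitted under each alternative that tested them. Of the 84 called ones, 19 lost the call with the replicate block, 33 of the 81 tested with the 8 injured libraries alone, 14 of the 63 tested at a mean of at least 10 CPM, 3 with DESeq2 and 3 with RLE scaling, and none of them changed sign in these fits. Some uncalled genes gained a call. FN1 and cdh5 were called with DESeq2 (DESeq2 adjusted p = 0.0337 and 0.0166), and nppa and ACADVL were each called in 1 alternative fit. The count of 384 genes (168 higher, 216 lower) was 152 (71 higher, 81 lower) among genes with a mean of at least 10 CPM, where fewer genes are tested, 198 (92 higher, 106 lower) with the injured libraries alone, 672 (334 higher, 338 lower) with DESeq2, 382 with RLE scaling, 485 without a filter and 284 with a log2 fold change of at least 1. Without 1 library it ranged from 208 to 534 (higher 95 to 248, lower 113 to 286). The sham count of 870 was 485 at a mean of at least 10 CPM and 559 to 724 without 1 library. The interaction count of 0 was 10 without a filter, 42 with DESeq2 and 0 to 6 without 1 library.

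The labels do not say that a replicate number is shared between genotypes. Deviations of same-numbered libraries correlated at 0.207, 0.0825, 0.0347 and 0.172, and not every library correlated best with its own number. With the replicate block the injured count was 314, of which 286 were among the 384. ANKRD1, uncalled, had a log2 fold change of 0.21 with the replicate block and -0.34 to 0.36 without 1 library, and PCNA, uncalled, -0.021 to 0.32. Without 1 library, differences of mean log2 sums of markers were -1.97 to -1.17 for erythrocytes, -0.11 to 0.37 for skeletal muscle (negative without mutant replicate 1) and 0.80 to 1.29 for atrium and bulbus. The atrium and bulbus sum is mostly the gene with the symbol MYH6. The causes of the changes between fits were not tested.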

Other observations

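Regulators of Wnt signalling outside the lists were among the called genes, and they did not move together; they and the other genes here were picked after their values were seen. SFRP1 (ENSDARG00000035521) and SFRP5 (ENSDARG00000039041), secreted proteins that bind Wnt ligands, were lower, with 5.23, 6.58, 7.02 and 2.54 CPM for SFRP1 and 22.8, 37.95, 27.6 and 22.4 CPM for SFRP5 in mutants, against 9.13, 10.7, 11.4 and 11.8 CPM for SFRP1 and 79.3, 61.6, 45.5 and 38.2 CPM for SFRP5 in wild type. Their log2 fold changes were -1.03 and -1.03 (SE 0.26 and 0.26, edgeR adjusted p = 0.0431 and 0.0444). WIF1 (ENSDARG00000005541), another secreted Wnt inhibitor, was higher, with 11.9, 11.0, 16.6 and 8.63 CPM in mutants and 7.40, 3.60, 3.10 and 3.11 CPM in wild type (log2 fold change 1.48, SE 0.31, adjusted p = 0.0155 by edgeR). EPAS1 (ENSDARG00000008697), an oxygen-regulated transcription factor, was lower, with 16.7, 17.4, 19.6 and 22.4 CPM in mutants and 25.4, 39.8, 36.7 and 27.4 CPM in wild type (log2 fold change -0.76, SE 0.17, adjusted p = 0.0221 by edgeR). The libraries of the genotypes did not overlap in any of these 4 genes, nor in 334 of the 384 called genes and 8.03% of all tested genes.

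CTSD (ENSDARG00000057698), a protease of lysosomes, had 223, 245, 230.1 and 314 CPM in mutants and 158, 142, 151 and 168 CPM in wild type (log2 fold change 0.71, SE 0.13, adjusted p = 0.00834 by edgeR). ME2 (ENSDARG00000100718), a mitochondrial malic enzyme, averaged 109 ± 26.2 CPM in mutants and 68.5 ± 11.6 CPM in wild type (SD, n = 4 each; log2 fold change 0.68, SE 0.17, adjusted p = 0.0445 by edgeR). SFRP1, SFRP5, WIF1, EPAS1 and ME2 lost their calls in 2 to 6 of the 8 fits that each left out 1 library. Adjusted p-values by edgeR were highest without wild-type replicate 3 for SFRP1 (0.102) and WIF1 (0.0557), without mutant replicate 1 for SFRP5 (0.120) and ME2 (0.133) and without wild-type replicate 2 for EPAS1 (0.0857).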
